A study of Aloe vera with 7 samples.

Results

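The genes described here build and decorate the non-cellulosic polysaccharides of the plant cell wall: the TBL, CSL, IRX and GAUT families. They were compared between root and leaf of Aloe vera, on Affymetrix ATH1 arrays, a platform built from the genes of Arabidopsis thaliana. Members were the probe sets listed with a single gene whose symbol began with 1 of 12 family names followed by a number. This gave 28 probe sets for 28 genes, of 18810 probe sets tested and 11100 listed with a single gene. The TBL family supplied 20 of them, CSLC 3, IRX 2, and CSLA, CSLD and GAUT 1 each. The CSLB, CSLE, CSLG, GATL, GUX and FUT names had 0 members by this matching and were not analysed here, so GAUT15 is the only gene of the set named for pectin backbone synthesis.

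The series comprised 3 arrays of root RNA and 3 arrays of leaf RNA, each labelled from 250 ng, and 1 array of genomic DNA from leaf, whose column held 0 values. The labels describe 1 mature plant bought at a garden centre and kept indoors at room temperature, and give no age, cultivar or treatment. They do not say whether replicates came from separate extractions. With 1 plant described, the p-values rest on the spread among these arrays alone. That spread may be technical, and it does not measure variation between plants. A value is the log2 signal of a probe set relative to its median over the 6 RNA arrays. It compares tissues for the same probe set, and gives neither a level nor a way to rank genes against each other. It reflects binding of Aloe RNA to Arabidopsis probes, so every gene name below is that of the Arabidopsis probe set and every role is known from Arabidopsis.

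Hemicelluloses are made in the Golgi, where enzymes of the CSL families polymerise the backbone: CSLA enzymes make mannans and CSLC enzymes the glucan of xyloglucan. Xylan, the main hemicellulose of secondary walls, needs proteins named after the irregular xylem (IRX) of their mutants. Pectin backbones of galacturonic acid are made by the GAUT family. Several proteins of the TBL family (trichome birefringence-like) attach acetyl groups to these polymers, and different members serve xylan, mannan, xyloglucan or pectin. This activity is not assumed for every member. Aloe leaf gel is known for a mannan that is heavily acetylated, called acemannan.

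The tissue labels were set against markers. All 14 plastid-encoded photosynthesis genes in the marker list had a lower mean in root. Their median per array was between -0.82 and -0.42 log2 in root. In leaf replicates 1 to 3 it was 2.17, 0.38 and 1.61 log2, so leaf replicate 2 was the lowest of the leaf arrays. Of the 14 genes 5 passed the adjusted threshold in limma, where 0.34% of all probe sets passed (0.276% on the leaf side). Of 17 root marker genes 2 were measured, the root hair expansins EXPA7 and EXPA18, with 0 calls in limma, 0 at an unadjusted p under 0.05 and differences of 0.084 and 0.082 log2. The pollen and tip growth list had 2 of 5 genes measured, ANX1 and ANX2, also with 0 calls and 0 at an unadjusted p under 0.05. Of the 19 xylem and secondary wall markers 0 were measured. The share of xylem in the samples was therefore not measured, and in whole organs fewer cells of a type and less RNA per cell cannot be told apart. Leaf replicate 2 stood apart on the array's 25S ribosomal RNA control, where it had -4.72 log2 and the lowest of the other 5 RNA arrays had -0.90 log2. On the 5S ribosomal RNA control it did not, with -0.13 log2 beside -0.14 log2 in root replicate 2.

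Root and leaf were compared to ask which wall polysaccharide genes bound the RNA of these tissues unequally. With limma and adjustment over all 18810 probe sets, 0 of the 28 members passed an adjusted p of 0.05, where 0.34% of all probe sets passed. At an unadjusted p under 0.05 there were 3 members, TBL21 on the root side and TBL26 and TBL41 on the leaf side, where 9.56% of all probe sets reached that level (4.68% on the root side and 4.88% on the leaf side). The root and leaf arrays did not overlap in 5 members, against 15.1% of all probe sets. In TBL21, TBL18 and CSLC6 all root arrays lay above all leaf arrays, as in 8.27% of all probe sets. In TBL26 and TBL41 all root arrays lay below, as in 6.87%. Both shares are near the background, at 3 and 5 of 28. TBL18, and the other members not picked out by the rule for named genes, are described because every member is accounted for.

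**Figure D1:**
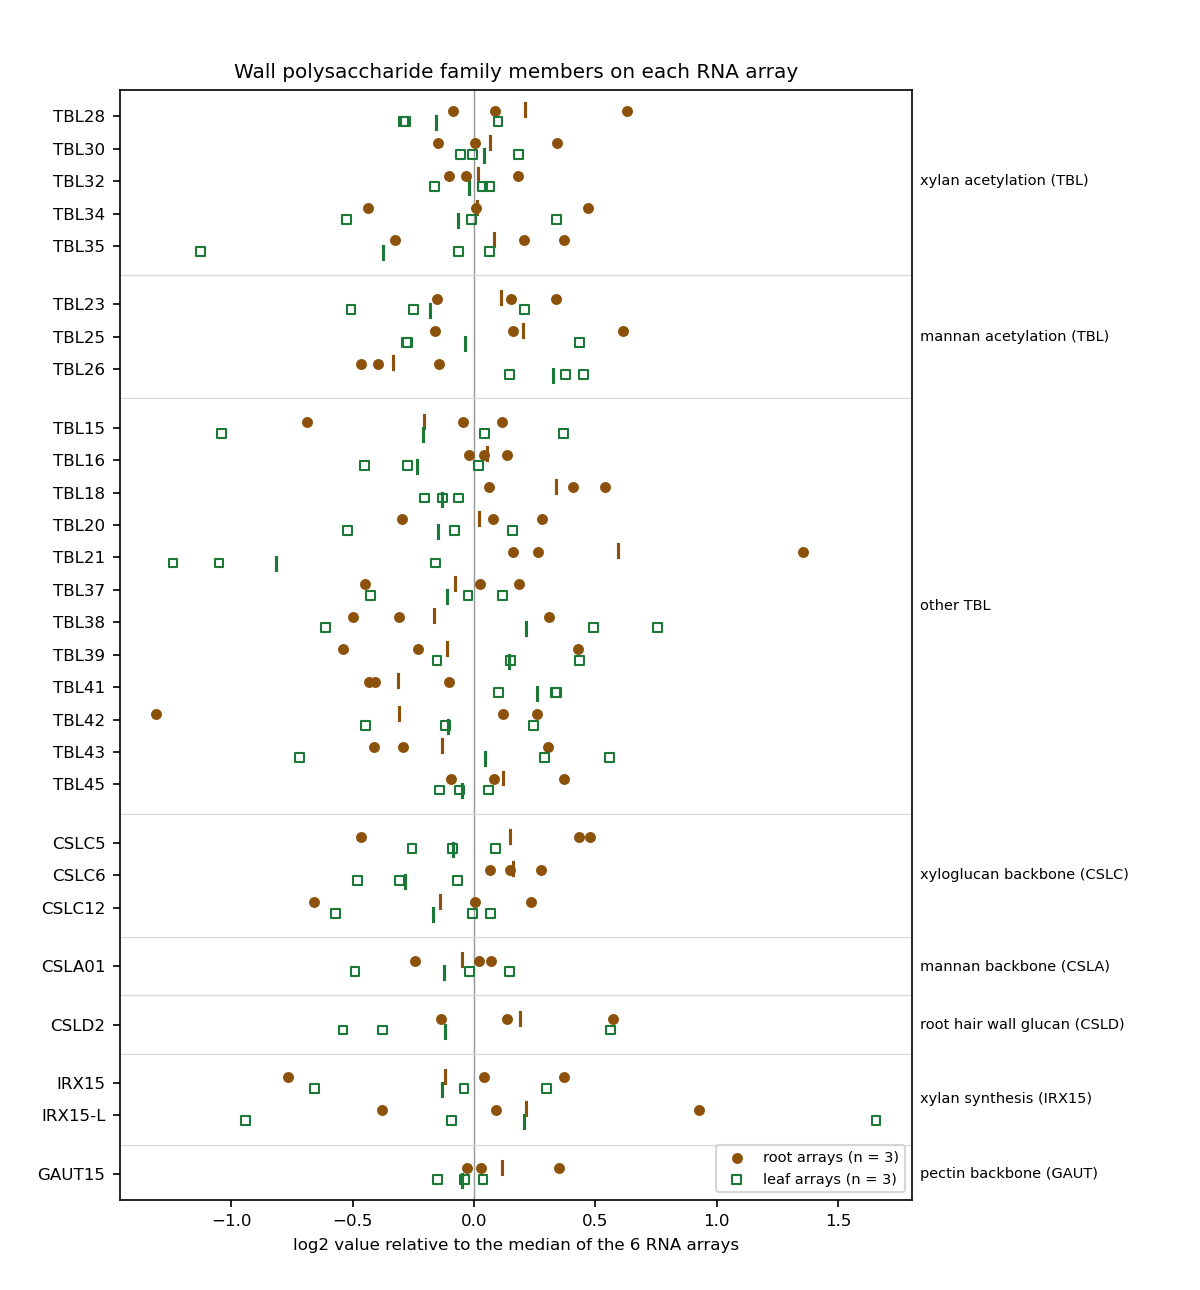
Values of the 28 members on the 3 root arrays (filled circles) and the 3 leaf arrays (open squares), in log2 relative to the median of the 6 RNA arrays, with short bars at the tissue means. Circles and squares separate in TBL21, TBL18, CSLC6, TBL26 and TBL41 and overlap in the other 23 members.

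The TBL family spanned both the highest and the lowest difference of the set. Of its 20 members 14 had a higher mean in root and 6 a lower one, a count of 14 that was 13 after quantile normalization or array centring and 12 with array weights. Its median root minus leaf difference was 0.057 log2, beside 0.034 log2 over all probe sets tested. Differences ran from -0.66 to 1.41 log2, and 17 of the 20 were within 0.5 log2 of 0.

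TBL21 (Entrez gene 831446) had the largest difference of the 28 members. Its values were 0.26, 1.35 and 0.16 log2 in root replicates 1 to 3, against -1.05, -0.16 and -1.24 log2 in leaf replicates 1 to 3. All root arrays lay above all leaf arrays, with root replicate 2 the highest and leaf replicate 3 the lowest. The mean was 0.59 ± 0.66 log2 in root and -0.82 ± 0.58 log2 in leaf (SD, n = 3 each). Root minus leaf was 1.41 ± 0.40 log2 (SE). This is 2.66-fold, with a 95% interval of 1.39-fold to 5.09-fold. It did not pass over all probe sets in limma (adjusted p = 0.294, range over the alternatives 0.0606 to 0.591). A difference as high toward root was seen in 0.335% of all probe sets, with differences toward leaf not counted. TBL21 was picked as the highest of the 28, and its within-tissue SD of 0.62 log2 exceeded that of 88.3% of all probe sets.

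Leaf and root arrays of the same replicate number correlated weakly in their deviations from tissue means (Pearson, 0.117, 0.366 and 0.247 for numbers 1 to 3). The pairing was drawn from these same data, so TBL21 is no test of it. Root exceeded leaf by 1.31, 1.51 and 1.40 log2 within numbers 1, 2 and 3, although replicate 2 was the higher in both tissues. Blocking on the replicate number gave an adjusted p of 0.0606, the lowest among the alternatives and above the threshold. Without root replicate 2 the difference was 1.03 log2, and without leaf replicate 2 it was 1.74 log2. Leaf replicate 2 held the highest leaf value of TBL21, so leaving it out could only raise the difference. Leaving out leaf replicate 1 or leaf replicate 3 lowered it. With any single array left out the difference stayed between 1.03 and 1.74 log2. The part of the 25S control value of leaf replicate 2 in the TBL21 difference was not tested. An exact permutation test of the 3 root against the 3 leaf values, two-sided, gave p = 0.1, the smallest this design allows.

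Enzymes that acetylate mannan were represented by TBL23, TBL25 and TBL26, and their differences lay on both sides of 0. TBL26 (Entrez gene 827902) had -0.47, -0.39 and -0.15 log2 in root replicates 1 to 3, against 0.15, 0.45 and 0.38 log2 in leaf. All root arrays lay below all leaf arrays, and root replicate 3 and leaf replicate 1 came closest to each other. The root minus leaf difference was -0.66 ± 0.20 log2 (SE, n = 3 each), 1.58-fold, and did not pass in limma (unadjusted p = 0.0121, adjusted p = 0.335, range over the alternatives 0.183 to 0.591). Root was lower within each replicate number, and the difference stayed between -0.75 and -0.59 log2 whichever array was left out.

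TBL23 had 0.34, -0.15 and 0.15 log2 in root and -0.51, -0.25 and 0.21 log2 in leaf. TBL25 had 0.61, 0.16 and -0.16 log2 in root and -0.28, -0.28 and 0.44 log2 in leaf. In both genes leaf replicates 1 and 2 lay below all root arrays and leaf replicate 3 did not. The differences were 0.30 ± 0.26 log2 for TBL23 and 0.24 ± 0.29 log2 for TBL25 (SE, adjusted p = 0.796 and 0.870 in limma). Both depended on single arrays, at 0.13 log2 without leaf replicate 1 for TBL23 and 0.49 log2 once leaf replicate 3 was dropped, and at 0.039 log2 without root replicate 1 for TBL25 and 0.48 log2 once leaf replicate 3 was dropped. Over the 3 mannan acetylation genes the median was 0.24 log2 and the mean -0.040 log2, so the sign depends on the summary. The median was 0.039 log2 without root replicate 1 and 0.48 log2 without leaf replicate 3. The single mannan backbone gene measured was CSLA01, at -0.24, 0.019 and 0.072 log2 in root and -0.49, -0.019 and 0.15 log2 in leaf. All root values lay inside the range of the leaf values. The 95% interval of its difference ran from -0.47 to 0.62 log2, and without leaf replicate 1 the difference was -0.11 log2.

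**Figure D2:**
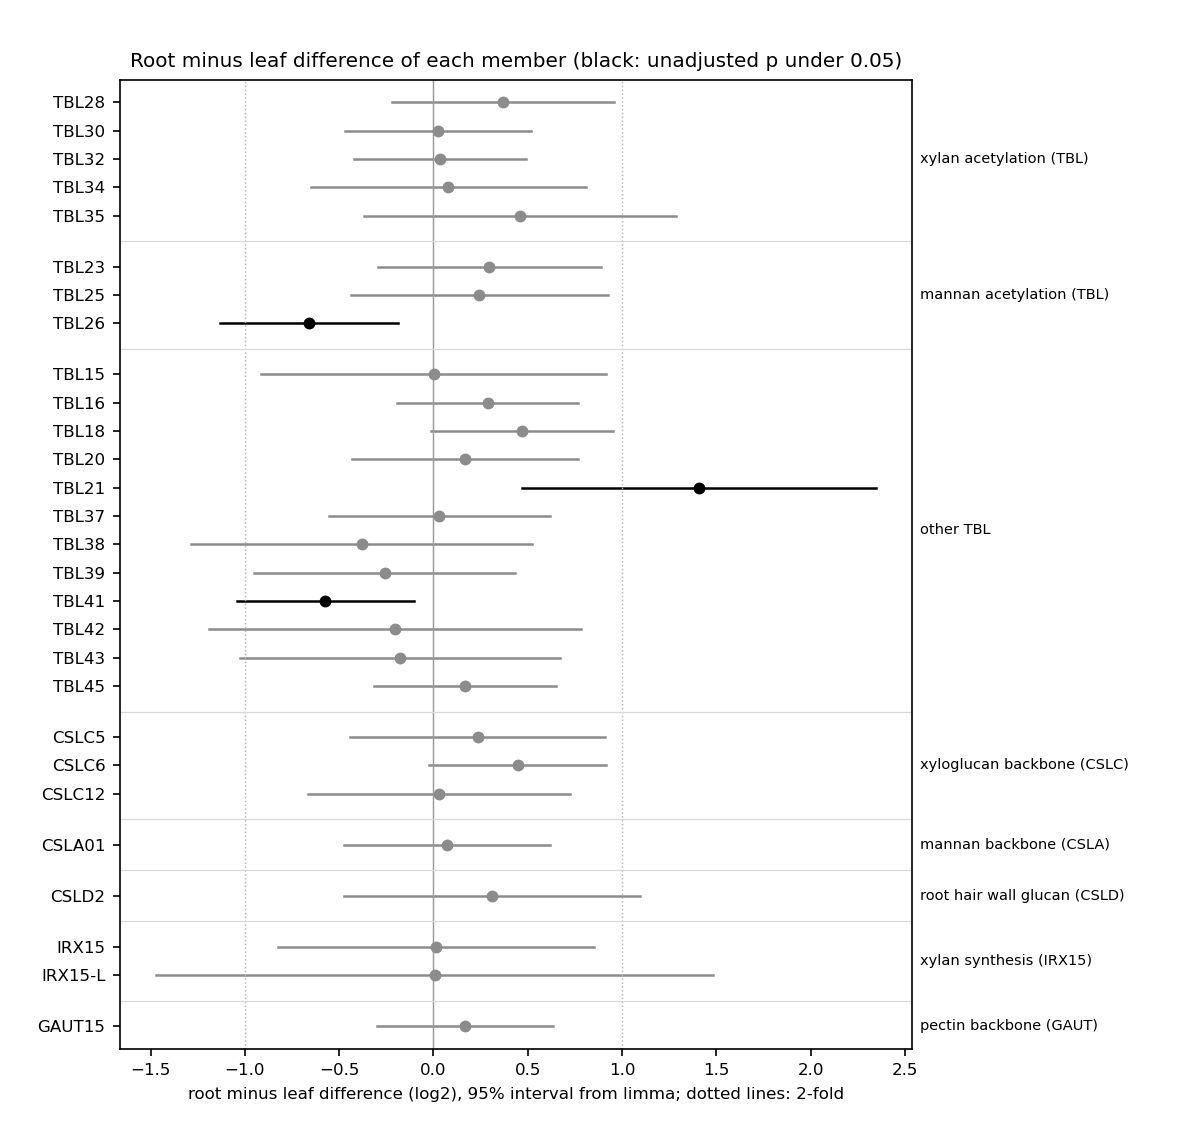
Root minus leaf difference in log2 for each member (points) with its 95% interval from limma (lines, n = 3 arrays per tissue), black where the unadjusted p was under 0.05. TBL21 lies at 1.41 log2 and TBL26 and TBL41 at -0.66 and -0.57 log2, and the intervals of 19 of the 28 members stay inside the dotted lines at 2-fold.

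Xylan acetylation was covered by TBL28, TBL30, TBL32, TBL34 and TBL35, which take part in placing acetyl groups on xylan in Arabidopsis. All 5 had a higher mean in root, as did 54.5% of all probe sets, and 0 of the 5 were called or had an unadjusted p under 0.05 in limma. Their median difference was 0.080 log2. TBL30, TBL32 and TBL34 lay between 0.025 and 0.080 log2, and each turned negative without certain arrays, as low as -0.15 log2 for TBL34. The higher values were those of TBL35 and TBL28.

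TBL35 had -0.32, 0.37 and 0.21 log2 in root, against 0.064, -0.064 and -1.13 log2 in leaf. Its difference of 0.46 ± 0.36 log2 (SE, adjusted p = 0.772) rested on leaf replicate 3, without which it was 0.084 log2. TBL28 had 0.086, -0.086 and 0.63 log2 in root, against 0.099, -0.29 and -0.28 log2 in leaf. Root replicate 3 was its only value above the highest leaf array, and the difference was 0.37 ± 0.25 log2 (SE, adjusted p = 0.741), or 0.16 log2 without that array. The probe set of TBL32 has the suffix that marks sequence shared between transcripts, so its signal may come from more than 1 gene.

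The other proteins of xylan synthesis were IRX15 and IRX15-L, a closely related pair needed together for normal xylan in Arabidopsis. Their means differed by 0.014 and 0.0063 log2 between root and leaf, with signs that turned negative after array centring. Arrays of the same tissue were widely spread in both genes. IRX15-L had 0.093, -0.38 and 0.93 log2 in root and 1.66, -0.093 and -0.94 log2 in leaf. Both the highest and the lowest value of the gene were leaf arrays, and its within-tissue SD of 1.05 log2 exceeded that of 98.8% of all probe sets. IRX15 had 0.041, 0.37 and -0.77 log2 in root and -0.041, -0.66 and 0.30 log2 in leaf, so its highest and lowest values were both root arrays. The 95% intervals ran from -0.82 to 0.85 log2 for IRX15 and from -1.47 to 1.48 log2 for IRX15-L, so the interval of the second gene reached beyond 2-fold in either direction.

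GUT1 and GUT2, listed under symbols outside the rule, belong with the IRX genes as enzymes of the xylan backbone, and GUT2 is also known as IRX10. GUT2 had -0.18, -0.50 and -0.28 log2 in root, against 0.18, 0.40 and 0.26 log2 in leaf. All root arrays lay below all leaf arrays, with a difference of -0.60 ± 0.20 log2 (SE) that did not pass in limma (unadjusted p = 0.0164, adjusted p = 0.372, range over the alternatives 0.246 to 0.593). GUT1 overlapped between the tissues, at 0.11 ± 0.22 log2 (SE, adjusted p = 0.936).

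For the remaining 12 TBL members no polymer is given here. Their median was 0.017 log2, with 7 higher in root and 5 lower. TBL41 (Entrez gene 820714) had -0.10, -0.41 and -0.43 log2 in root, against 0.10, 0.34 and 0.34 log2 in leaf. All root arrays lay below all leaf arrays, and replicate 1 was the closest to 0 in both tissues. Its difference was -0.57 ± 0.20 log2 (SE, n = 3 each), 1.49-fold, and did not pass in limma (unadjusted p = 0.0227, adjusted p = 0.411, range over the alternatives 0.316 to 0.662).

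TBL18 had 0.064, 0.41 and 0.54 log2 in root, against -0.13, -0.20 and -0.064 log2 in leaf. The leaf arrays lay close together, and root replicate 1 was the only root array near them. Its difference was 0.47 ± 0.21 log2 (SE, adjusted p = 0.542). TBL16 was next on the root side of these 12, at 0.29 ± 0.21 log2 (SE, adjusted p = 0.753), with root higher within all 3 replicate numbers and leaf replicate 1 inside the range of root. TBL20 and TBL45 both stood at 0.17 log2, and TBL37 and TBL15 at 0.031 and 0.0022 log2. TBL15 nonetheless varied widely, from -0.69 to 0.11 log2 in root and from -1.04 to 0.37 log2 in leaf.

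On the leaf side, TBL38, TBL39, TBL42 and TBL43 had differences of -0.38, -0.26, -0.20 and -0.18 log2, with adjusted p-values of 0.839, 0.864, 0.937 and 0.936 in limma. Their spread was large beside the difference. TBL42 had 0.12, -1.31 and 0.26 log2 in root and 0.25, -0.12 and -0.45 log2 in leaf. A single array, root replicate 2, decided its sign, and without it the difference was 0.30 log2. TBL38 had 0.31, -0.50 and -0.31 log2 in root and 0.49, -0.61 and 0.76 log2 in leaf, and leaf replicate 2 was its lowest value. Without that array its difference was -0.79 log2, with an adjusted p of 0.509.

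The CSLC family, which makes the glucan backbone of xyloglucan, had 3 members, CSLC5, CSLC6 and CSLC12. All 3 had a higher mean in root, with CSLC12 turning to -0.026 log2 after quantile normalization and -0.10 log2 with array weights, and 0 of the 3 were called or had an unadjusted p under 0.05. Their median difference was 0.23 log2, which leaving out root replicate 3 lowered to 0.070 log2 and leaving out root replicate 2 raised to 0.455 log2. CSLC6 (Entrez gene 819921) had 0.067, 0.15 and 0.28 log2 in root, against -0.31, -0.067 and -0.48 log2 in leaf. All root arrays lay above all leaf arrays, and its within-tissue SD was 0.164 log2. The difference was 0.45 ± 0.20 log2 (SE), 1.36-fold, with an unadjusted p of 0.0598 and an adjusted p of 0.559 in limma.

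CSLC5 had 0.43, -0.46 and 0.48 log2 in root and -0.090, -0.26 and 0.090 log2 in leaf. Root replicates 1 and 3 were above all leaf arrays and root replicate 2 was below all of them, for a difference of 0.23 ± 0.29 log2 (SE, adjusted p = 0.875). Dropping root replicate 2 gave 0.54 log2, and dropping root replicate 3 gave 0.070 log2. CSLC12 had -0.66, 0.0047 and 0.23 log2 in root and 0.069, -0.57 and -0.0047 log2 in leaf. Each tissue held 1 low array, and the difference was 0.029 ± 0.30 log2 (SE, adjusted p = 0.990). On all 3 CSLC probe sets root replicate 3 was the highest of the 6 arrays.

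CSLD2, which acts in the wall of growing root hairs together with CSLD3, had 0.14, -0.14 and 0.57 log2 in root, against -0.38, -0.54 and 0.56 log2 in leaf. Root was higher within each replicate number, by 0.51, 0.40 and 0.012 log2, while the tissues overlapped because replicate 3 was high in both. The difference was 0.31 ± 0.34 log2 (SE, adjusted p = 0.853 and, with the replicate block, 0.619). Dropping leaf replicate 2 gave 0.098 log2, and dropping leaf replicate 3 gave 0.65 log2. Its 95% interval of -0.47 to 1.09 log2 includes both 0 and a 2-fold higher signal in root.

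GAUT15, of the galacturonosyltransferase family of pectin synthesis, had 0.029, 0.35 and -0.029 log2 in root and 0.038, -0.15 and -0.038 log2 in leaf. Root replicate 2 was the highest, with the remaining 5 values from -0.15 to 0.038 log2. The difference was 0.17 ± 0.20 log2 (SE, adjusted p = 0.870), with a 95% interval of -0.30 to 0.64 log2, and it was 0.050 log2 without root replicate 2. Its within-tissue SD of 0.160 log2 was below the median of 0.32 log2 over all probe sets.

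**Figure D3:**
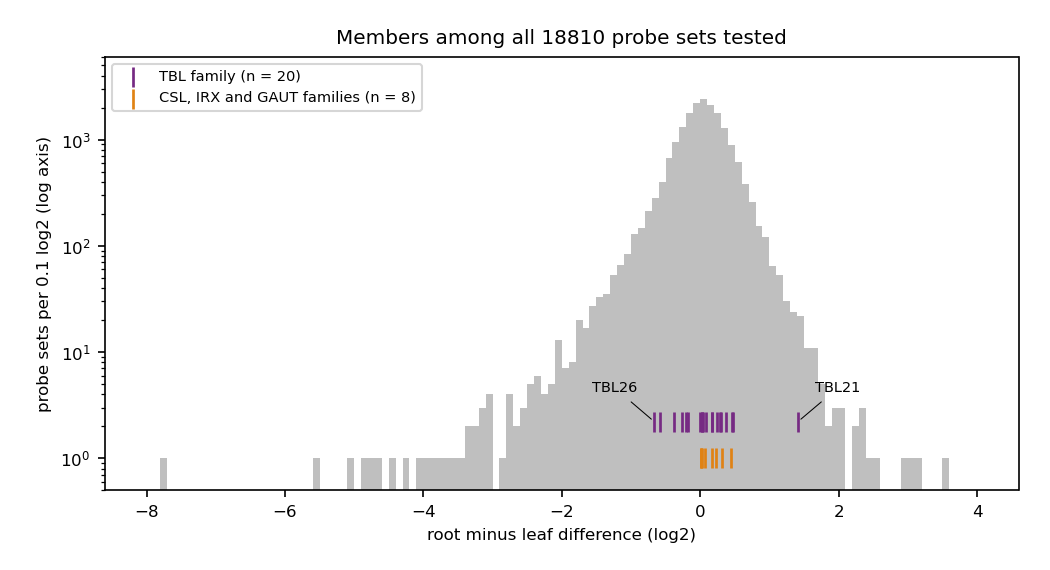
Histogram of root minus leaf differences in log2 over all 18810 probe sets tested (grey, log axis of counts per 0.1 log2), with the 20 TBL members (upper ticks) and the 8 members of the CSL, IRX and GAUT families (lower ticks). The 8 lie between 0.0063 and 0.45 log2, and TBL21 at 1.41 log2 is the only member beyond 2-fold.

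Over all 28 members the median difference was 0.075 log2, against 0.034 log2 over all probe sets, and their quartiles were 0.0053 and 0.29 log2. Root had the higher mean in 22 members, where 54.5% of all probe sets had it. This count was sensitive to small shifts, because 8 of the 22 lay under 0.075 log2: it was 19 after quantile normalization, array centring or array weighting, and 17 without leaf replicate 2 or root replicate 3. A difference of over 2-fold was seen in 1 member, against 3.5% of all probe sets. The 95% interval stayed within 2-fold in either direction in 19 members (67.9%, against 63.4% of all probe sets) and reached beyond it in 9.

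The arrays did not contribute evenly. Root replicate 3 was the highest of the 6 arrays in 11 of the 28 members (39.3%, against 17.8% of all probe sets). Leaf replicate 2 was the lowest in 9 (32.1%, against 17.4%). The median over the members was 0.042, -0.0077 and 0.16 log2 in root replicates 1 to 3 and 0.036, -0.16 and -0.0075 log2 in leaf replicates 1 to 3, so leaf replicate 2 was the lowest and root replicate 3 the highest. The medians over all probe sets lay between -0.014 and 0.017 log2. Without leaf replicate 2 the median difference of the members was 0.088 log2, 0 were called, and 4 had an unadjusted p under 0.05. The part of that array's 25S ribosomal RNA value in these results was not tested.

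**Figure D4:**
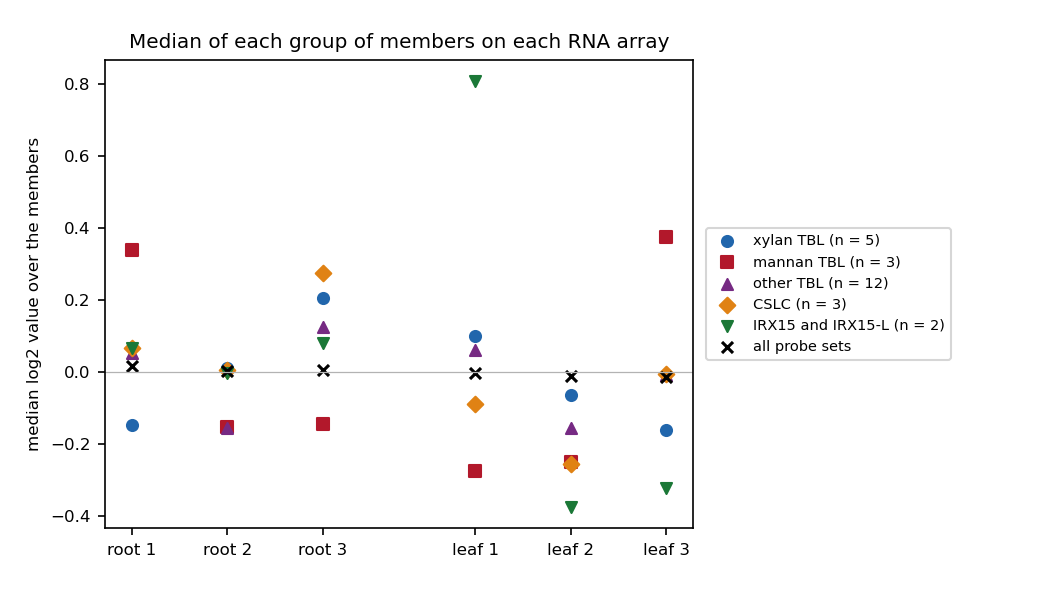
Median log2 value over the members of each group on each RNA array, with root arrays left and leaf arrays right, and over all probe sets (crosses). The mannan TBL group ranges from -0.15 to 0.34 log2 in root and from -0.28 to 0.38 log2 in leaf, and the pair IRX15 and IRX15-L reaches 0.81 log2 in leaf replicate 1.

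Other genes of these pathways were scarcely measured. Of 118 genes in 6 lists, covering cellulose synthesis, nucleotide sugars, xyloglucan side chains, xylan modification, pectin side chains and methyl esters, and acetylation outside the TBL names, 3 matched a single-gene probe set, in the first 2 lists. In limma 0 of the 3 passed over all probe sets and 0 had an unadjusted p under 0.05. COB, which orients cellulose deposition, differed by -0.19 ± 0.22 log2 (SE, adjusted p = 0.857). USP, a pyrophosphorylase that makes nucleotide sugars, had -0.58, -0.72 and 0.54 log2 in root and 0.076, -0.076 and 0.59 log2 in leaf, a difference of -0.45 ± 0.37 log2 (SE, adjusted p = 0.779). GER2, of the GDP-fucose pathway, differed by 0.20 ± 0.22 log2 (SE, adjusted p = 0.857).

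With 3 arrays per tissue the median SE was 0.28 log2 over the members and 0.26 log2 over all probe sets. Signal levels and backgrounds are not known here, so a value near 0 does not show equal RNA in root and leaf. Deposited values are rounded in steps of differing width, and 53.6% of the members had the wider steps throughout, against 63.2% of all probe sets. Whether step width follows signal was not tested here, so these shares are not read as levels.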

How the data were processed

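Labelled RNA of Aloe vera root and leaf was hybridised to ATH1 arrays. The authors' deposited log2 values were made with RMA, which corrects background, equalises array quantiles and condenses probes, per the submitters' processing notes; its version and the log base are not given in the sources used here. Each of the 18874 probe sets had a median within 1e-06 of 0 over the 6 RNA arrays, so values had been centred, as seen from the values. The 64 control probe sets were left out. Genes come from the platform's probe annotation (350 probe sets with several genes and 7360 with none listed stayed unnamed).

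Differences of root from leaf were estimated in R 4.3.3 by limma 3.58.1 (eBayes after lmFit) over all 18810 probe sets without a covariate, and p-values were adjusted by Benjamini-Hochberg over all of them. Residual degrees of freedom were 4 and prior ones 3.8. The fit was also run on simulated data with independent normal noise. That noise lacks the correlation between arrays of the same number, and no result here rests on it. Python 3.11.15 was used for summaries and the exact test. Alternatives were array centring, quantile normalization, the replicate block, array weights, a robust fit with variance trend, probe sets without a shared-sequence suffix, and each array left out.

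Deviations from tissue means correlated by 0.117, 0.366 and 0.247 between root and leaf arrays of numbers 1, 2 and 3 (Pearson, across probe sets), and by -0.294 to 0.0638 between different numbers. Each same-number value was over 0.1. The deviations of a tissue cancel over its arrays, so positive same-number values tend to lower the different-number ones by construction. The numbers were treated as pairs only in the replicate block and where differences within a number are given. The main fit has no pairing, and the pairing is an assumption drawn from these data.

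Members, lists, tests and the naming rule were set with earlier results of these data known. The rule names, per family, the highest and lowest difference, every member with an unadjusted p under 0.05 or without overlap and over 0.5 log2, all members of families of 3 or fewer, and up to 2 genes per list. No sequences were used here.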

Additional observations from a re-analysis of the deposited data

How the results depend on the processing

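In limma the count of members called was 0 under all 12 alternatives fitted, with 2 to 4 members at an unadjusted p under 0.05. By other rules it was 3 of 28 at an unadjusted p under 0.05, against 9.56% of all probe sets. It was 5 of 28 by no overlap of root and leaf arrays, against 15.1%. Both are near the background. The replicate block changed no call among the members or the pathway lists (lowest adjusted p 0.0606, for TBL21). Over all probe sets, 12 were called higher in root and 52 higher in leaf. A robust fit with variance trend called 40 and 115, the cause of which was not tested. With an array left out, on fewer samples, the counts were 0 to 5 and 7 to 28.

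Among the named members, signs turned where differences were near 0. CSLC12 turned to -0.10 log2 with array weights and -0.026 log2 after quantile normalization. IRX15 turned to -0.0032 log2 after array centring and -0.0051 log2 after quantile normalization, and IRX15-L to -0.011 log2 after array centring. Array centring also turned the medians of IRX, to -0.0071 log2, and of the TBL members with no polymer given, to -0.00094 log2. With an array left out, differences ranged from -0.17 to 0.29 log2 for CSLC12, -0.11 to 0.20 log2 for CSLA01, -0.25 to 0.34 log2 for IRX15 and -0.57 to 0.73 log2 for IRX15-L. Group medians then ranged from 0.047 to 0.16 log2 for the TBL family, 0.056 to 0.30 log2 for its xylan members, -0.050 to 0.16 log2 for those with no polymer given and 0.070 to 0.455 log2 for CSLC. They were 0.039 to 0.48 log2 for its mannan members and -0.20 to 0.40 log2 for IRX. A wider membership by other symbols added 2 genes, GUT1 and GUT2, with 0 members called. The medians stayed at 0.075 log2 over all members and 0.010 log2 for IRX. GUT1 lay above both medians and GUT2 below both, so adding the pair could not move them. GUT2 had an unadjusted p of 0.0164 in limma and no overlap of root and leaf arrays.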
